A study of Danio rerio with 2 samples.

Results

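A set of 8 genes of prohormone processing and of the secretory granule was followed through the hormone-expressing cells of the larval zebrafish islet. They are the convertase genes *pcsk1* and *pcsk2*, the carboxypeptidase gene *cpe*, the granin genes *chga*, *scg2b*, *scg3* and *scg5*, and *scgn*, which encodes secretagogin. The 8 genes were taken from a list, 8 of 24900 genes in the tables, and all 8 were present in both samples. Single cells sorted for green fluorescence from hand-picked islets of 7 dpf (days postfertilization) larvae were compared between *gcgr-/-*;*Tg(gcga:GFP)* and control *Tg(gcga:GFP)* zebrafish, in a test of what loss of the glucagon receptor does to α cells. In the *gcgr-/-* larvae both receptor genes, *gcgra* and *gcgrb*, are disrupted, and in both groups the *gcga* promoter, one of the glucagon gene promoters of the fish, drives GFP. Each genotype was 1 sample, so cells and libraries of a genotype are not biological replicates.

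Islet hormones are made as longer precursors that are cut inside the secretory granule. In mammals, the convertase encoded by *PCSK2* is the main enzyme that releases glucagon from proglucagon in α cells, the one encoded by *PCSK1* directs the same precursor toward GLP-1 in gut cells, and both act on proinsulin in β cells. Carboxypeptidase E, encoded by *CPE*, then trims the basic residues left at the cut ends, while granins such as chromogranin A help to load and shape the granule.

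Of 576 sequenced cells, 288 of 384 *gcgr-/-* cells and 156 of 192 control cells passed a quality filter, with 500 or more genes detected and mitochondrial transcripts at 10% of counts or less. Cells were sorted into kinds by their leading hormone, the most abundant transcript of *gcga*, *gcgb*, *ins*, *sst1.1*, *sst1.2*, *sst2*, *gip* and *ghrl* in the cell. That transcript had to reach 1% of all counts by itself. Cells led by *gcga* or by *gcgb* were called glucagon-led, and counts of *gcga* and *gcgb* were not added together. The *gcgr-/-* sample held 106 glucagon-led, 54 *ins*-led, 52 *sst1.1*-led and 29 *sst1.2*-led cells and 27 cells with no leading hormone, against 3, 41, 36, 29 and 31 such cells in the control sample. Glucagon-led cells therefore could be described in the *gcgr-/-* sample only. Cells led by *ins* or a somatostatin transcript had passed the same GFP gate. Of the *ins*-led cells, the authors kept 1 of 54 in *gcgr-/-* and 0 of 41 in control for their own analysis. The cells lay in 16 *gcgr-/-* libraries on 4 plates and 8 control libraries on 2 plates, going by how the cell names begin, and no library held both genotypes, so that genotype and library preparation cannot be told apart. Median depth was 25523 counts per *gcgr-/-* cell and 22042 per control cell. Among kinds with at least 10 cells in both samples, it differed most between the *sst1.2*-led cells, with 28798 in *gcgr-/-* and 14403 in control cells. Control cells with no leading hormone carried a summed 23564 CPM (counts scaled to a total of 1000000) of 8 epithelial markers and 105 CPM of 5 endocrine transcription factor transcripts, against 2331 and 865 CPM in their *gcgr-/-* counterparts. These control cells served as the level of member transcripts in cells that are not clearly endocrine.

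The convertase transcripts were counted in few cells. Of the 444 cells, 31 had counts of both *pcsk1* and *pcsk2*, 58 of *pcsk1* only, 96 of *pcsk2* only and 259 of neither. *pcsk1* reached 23.8 CPM (95% Poisson interval 19.3 to 29.0) in the glucagon-led *gcgr-/-* cells, 98 counts in 17 of 106 cells. In *ins*-led cells it was at 39.0 CPM (30.7 to 48.8) in *gcgr-/-* and 55.2 CPM (43.7 to 68.8) in control. In *sst1.1*-led cells it was at 41.2 CPM in *gcgr-/-* and 57.7 CPM in control, and in *sst1.2*-led cells at 35.9 and 18.5 CPM. A single cell weighed heavily on several of these sums, as with the control *ins*-led cells, where 51 of 79 counts came from 1 cell and the other 40 cells gave 20.6 CPM. Intervals on sums and shares here cover counting error only, and reads copied by PCR make them too narrow.

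*pcsk2* sums were highest in control *ins*-led cells. The gene was at 29.9 CPM (24.8 to 35.6) in the glucagon-led *gcgr-/-* cells, with counts in 28 of 106 cells. Among *ins*-led cells it reached 58.4 CPM in *gcgr-/-*, in 19 of 54 cells, and 160.1 CPM in control, in 23 of 41 cells. Of the 114 counts in *gcgr-/-* *ins*-led cells 53 lay in 1 cell, and the others gave 32.0 CPM. With the top cell left out likewise, the glucagon-led *gcgr-/-* cells gave 25.9 CPM and the control *ins*-led cells 115 CPM. Within libraries, *pcsk2* was higher in the glucagon-led than in the *ins*-led cells in 9 of 15 and lower in 6, counted where a library held at least 2 cells of both kinds. Sums of fewer cells more often have 0 counts, so this tally can lean toward the more numerous glucagon-led cells. In *sst1.1*-led cells it was at 73.1 CPM in *gcgr-/-* and 105 CPM in control. The *sst1.2*-led values were 17.9 CPM in *gcgr-/-* and 138 CPM in control, but 61 of the 67 control counts lay in 1 cell, and without that cell the control sum was 13.0 CPM. Cells with no leading hormone had 0 *pcsk2* counts in *gcgr-/-* and 8 counts in control. Libraries spread widely, from 0 to 331 CPM around a median of 21.6 in the 15 *gcgr-/-* libraries with *ins*-led cells and from 26.3 to 804 CPM around 71.3 in the 8 control libraries.

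**Figure D1:**
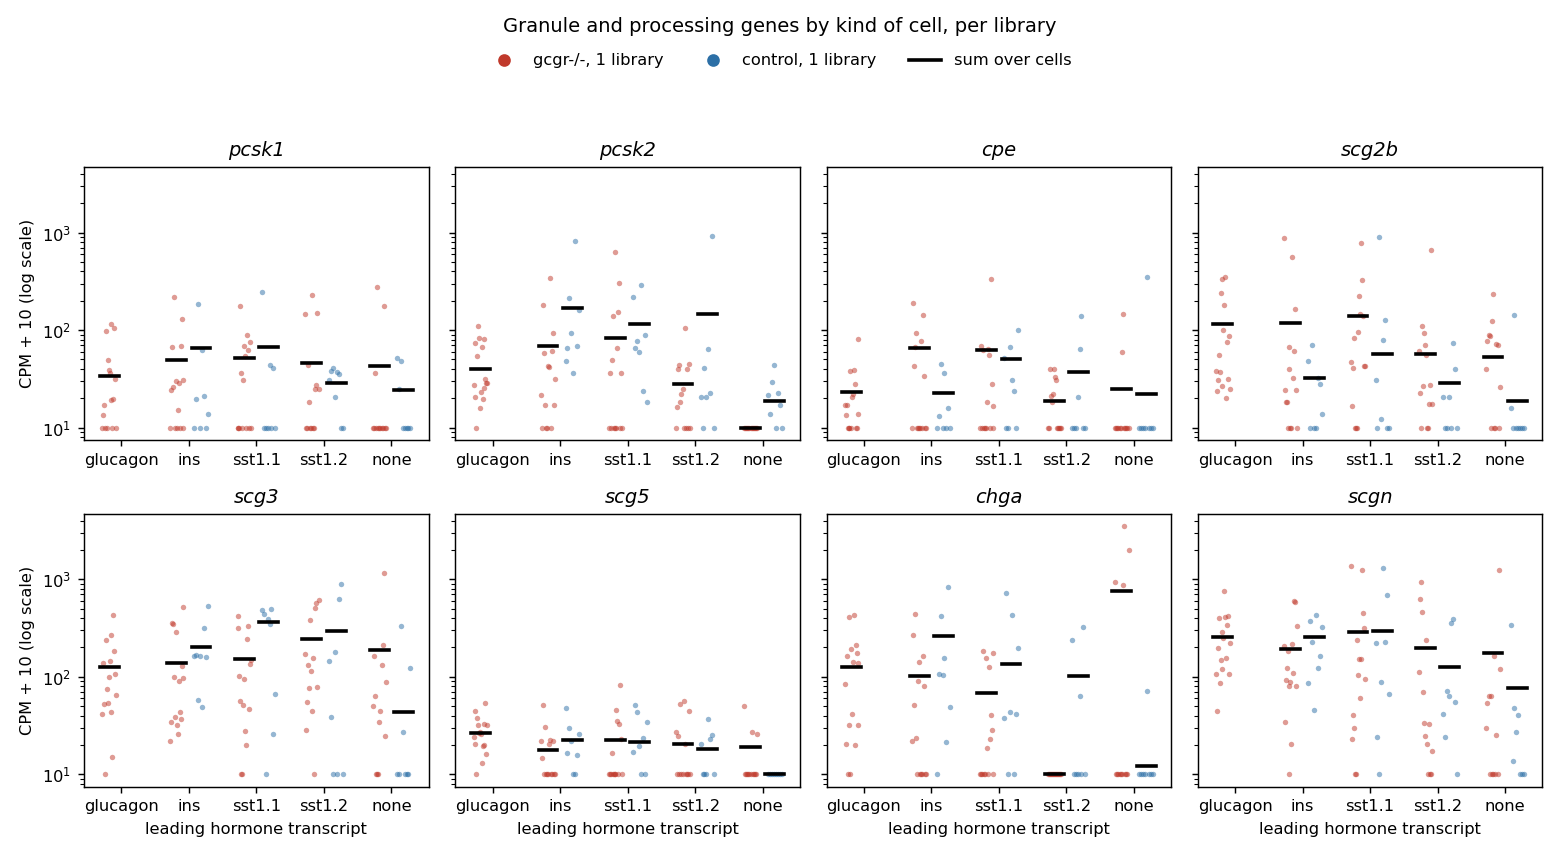
CPM plus 10 (log axis) of each gene in cells grouped by leading hormone transcript, with *gcgr-/-* left of control; each point is 1 library and each bar the value over all cells summed. Libraries of the genotypes overlap for every gene in every kind drawn with both, mostly with a library at 0 CPM in each genotype. Glucagon-led control cells (3 cells) are not drawn.

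The balance of the convertases was described as the *pcsk1* share of *pcsk1* plus *pcsk2* counts. Reads were counted over coding sequence only and can hold PCR copies, so this share is no ratio of molecules. The share was 44.3% (exact binomial 95% interval 37.7 to 51.2) in the glucagon-led *gcgr-/-* cells. It was 40.0% (33.0 to 47.3) in *gcgr-/-* and 25.6% (20.9 to 30.9) in control *ins*-led cells. At an equal depth of 5000 counts per cell, the *ins*-led values were 43.3% in *gcgr-/-* and 42.9% in control, from 30 and 42 counts of the pair, and the glucagon-led value was 30.8%. In *sst1.1*-led cells the share was 36.0% in *gcgr-/-* and 35.4% in control. In *sst1.2*-led cells it was 66.7% (54.6 to 77.3) in *gcgr-/-* and 11.8% (5.56 to 21.3) in control, and that control value became 53.8% once the cell with the most counts of each gene was left out. Plates moved the control values as far, the *ins*-led share being 4.72% without plate A and 40.3% without plate B and the *sst1.2*-led share 4.48% without plate A and 66.7% without plate B. Across libraries, the share ran from 0% to 91.7% in glucagon-led and from 0% to 100% in *ins*-led *gcgr-/-* cells. These ranges overlap almost wholly, but some of the *ins*-led library shares rest on only 1 to 3 counts of the pair. Shares of 0% or 100% come easily from so few counts, so the overlap says little of the balance.

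The balance was also described in the few single cells with enough counts. In the 43 cells with at least 10 counts of the pair, 22 held both transcripts, 11 held *pcsk1* alone and 10 held *pcsk2* alone. Of 8 such glucagon-led *gcgr-/-* cells, 3 held *pcsk1* alone, 1 held *pcsk2* alone and 4 held both. All 8 such control *ins*-led cells held both, with a median *pcsk1* share of 13.1%. Of 7 such *gcgr-/-* *ins*-led cells 3 held both, with a median share of 90.9% over the 7. Since counts can hold PCR copies, 10 counts of a transcript can stem from few molecules. The difference between these small groups of cells was not tested.

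**Figure D2:**
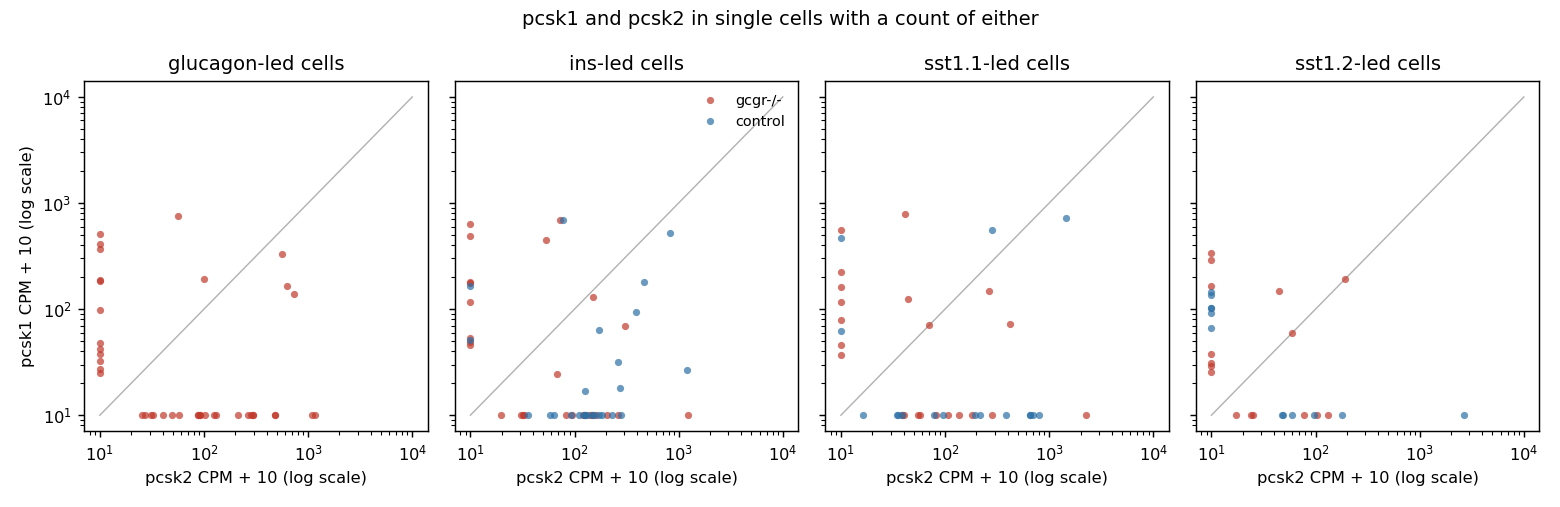
*pcsk1* against *pcsk2* (CPM plus 10, log axes) in each cell with a count of either transcript, by kind of cell, with *gcgr-/-* in red and control in blue; the grey line marks equal CPM. Most cells lie on an axis, with counts of 1 transcript only, and most control *ins*-led cells with both lie below the line.

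Downstream of the convertases, *cpe* was sparse in all kinds. It was at 13.1 CPM in the glucagon-led *gcgr-/-* cells. In *ins*-led cells it was at 54.8 CPM (44.9 to 66.3) in *gcgr-/-*, 107 counts in 9 of 54 cells, and 12.6 CPM (7.46 to 19.9) in control, 18 counts in 4 of 41 cells. In *sst1.1*-led cells the 2 sums were 51.8 CPM in *gcgr-/-* and 40.5 CPM in control, and in *sst1.2*-led cells 8.97 and 26.8 CPM. *scg5* encodes 7B2, the chaperone that pro-PCSK2 needs to become active in mammals. It lay between 7.69 and 16.3 CPM in the *gcgr-/-* and between 8.24 and 12.6 CPM in the control hormone-led cells, with no more than 7 counts in any glucagon-led cell. Glucagon-led cells with *pcsk2* held *scg5* in 8 of 28 cases (28.6%) and those without it in 37.2%. Among *ins*-led cells the values were 31.6% with and 11.4% without *pcsk2* in *gcgr-/-*, and 34.8% and 11.1% in control. The *ins*-led cells with *pcsk2* were also deeper, at a median of 43038 against 25625 counts in *gcgr-/-* and 36795 against 19817 in control. At 5000 counts per cell, *scg5* was counted in 1 of 10 *gcgr-/-* *ins*-led cells with *pcsk2* (10.0%, against 2.33% of those without), in 2 of 13 control ones (15.4%, against 0%) and in 0 of 14 glucagon-led *gcgr-/-* cells with *pcsk2* (against 13.2%). These numbers of cells are too small to compare. *pcsk1nl*, which encodes the inhibitor proSAAS, was counted in more cells than either convertase gene, in 157 of 288 *gcgr-/-* and 87 of 156 control cells.

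Among the granins, *chga* showed the widest range between kinds. In the *gcgr-/-* sample it was at 117 CPM (106 to 127) in glucagon-led, 92.8 CPM in *ins*-led and 58.4 CPM in *sst1.1*-led cells, and had 0 counts in the 29 *sst1.2*-led cells, where 3 counts would be 2.24 CPM. In the control sample it was at 254 CPM (229 to 282) in *ins*-led, 125 CPM in *sst1.1*-led and 92.7 CPM in *sst1.2*-led cells, the last from 45 counts in 3 cells. Its highest sum was in the *gcgr-/-* cells with no leading hormone, 744 CPM (680 to 812). That sum came from 7 of 27 cells in 4 of 13 libraries, with 228 of 497 counts in 1 cell, while the 31 control cells with no leading hormone held 2 counts. Summed α-cell markers (*gcga*, *gcgb* and *arxa*) were at 7438 CPM in these *gcgr-/-* cells and 197 CPM in the control ones.

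*scg2b*, a zebrafish gene for secretogranin II, a precursor of peptides such as secretoneurin, was at 107 CPM (97.1 to 117) in the glucagon-led *gcgr-/-* cells, in 42 of 106 cells. It was at 107 CPM in *gcgr-/-* and 22.4 CPM in control *ins*-led cells, at 129.5 and 46.8 CPM in *sst1.1*-led cells, and at 47.1 and 18.5 CPM in *sst1.2*-led cells. The *gcgr-/-* sum was the higher in each kind. *scg3* encodes secretogranin III, which binds chromogranin A to the granule membrane in mammals. It was at 115 CPM in glucagon-led *gcgr-/-* cells, in 65 of 106 cells. It was at 128 CPM in *gcgr-/-* and 192 CPM in control *ins*-led cells, at 144 and 352 CPM in *sst1.1*-led cells, and at 232 and 284 CPM in *sst1.2*-led cells. *scgn*, the calcium-binding protein secretagogin, was at 244 CPM in the glucagon-led *gcgr-/-* cells, in 68 of 106 cells. It was at 183 CPM (165 to 203) in *gcgr-/-* and 247 CPM (222 to 275) in control *ins*-led cells. In *sst1.2*-led cells it was at 187 CPM (164 to 211) in *gcgr-/-* and 117 CPM (88.9 to 152) in control. Its *sst1.1*-led sums lay within counting error of each other, at 281 CPM in *gcgr-/-* and 284 CPM in control.

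After thinning every cell to 5000 counts, the share of cells with a count could be compared between kinds. Counts of *scgn* were found in 34.3% of glucagon-led *gcgr-/-* cells, and in 32.1% of *gcgr-/-* and 43.9% of control *ins*-led cells, against 9.68% of the control cells with no leading hormone. For *scg3* the share was 28.6% of glucagon-led *gcgr-/-* cells, and 28.3% of *gcgr-/-* and 24.4% of control *ins*-led cells, against 12.9% of those control cells. *pcsk1*, at 6.67% of the glucagon-led *gcgr-/-* cells, stood at the 6.45% of the control cells with no leading hormone and cannot be read there as expression above background from this share, and *pcsk2*, at 13.3%, had an interval (7.49 to 21.4) that held the 9.68% of those control cells. Those control cells come from libraries of the other genotype. As sums, *pcsk1* was at 23.8 CPM in the glucagon-led *gcgr-/-* and 14.1 CPM in those control cells, and *pcsk2* at 29.9 and 8.67 CPM. In *gcgr-/-* cells with no leading hormone the sums were 32.9 CPM of *pcsk1* and 0 CPM of *pcsk2*. *chga* had a share of 14.3% among glucagon-led *gcgr-/-* cells. For *ins*-led cells its share was 11.3% (4.27 to 23.0) in *gcgr-/-*, against 36.6% (22.1 to 53.1) in control, and it was 0% in the control cells with no leading hormone, where a true share of up to 11.2% remains possible. Before thinning, *chga* was counted in 24.1% of the *gcgr-/-* and 61.0% of the control *ins*-led cells. In each kind of hormone-led cell with at least 10 cells in a sample, the median cell held a count of 1 of the 8 genes after thinning. None of the 8 was counted in 26.7% of glucagon-led *gcgr-/-* cells, nor in 71.0% of control cells with no leading hormone.

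**Figure D3:**
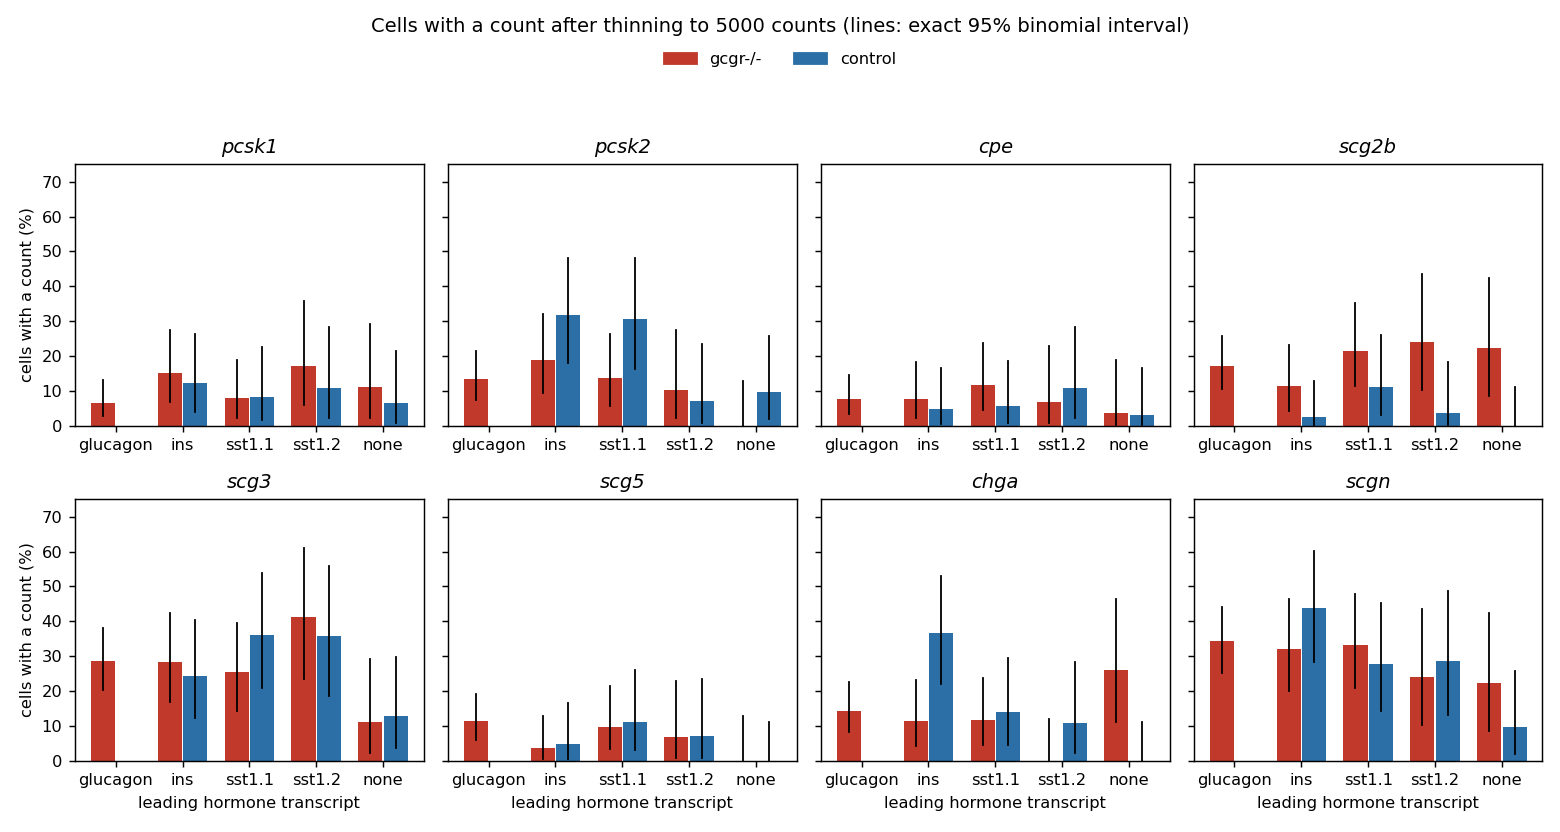
Percent of cells with a count of each gene after thinning to 5000 counts, by leading hormone transcript, with *gcgr-/-* (red) left of control (blue) and exact binomial 95% intervals as lines. *chga* in *ins*-led cells, at 11.3% in *gcgr-/-* and 36.6% in control, stands out, with 0% in the *sst1.2*-led *gcgr-/-* cells.

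Differences between kinds of cell were tested over counts summed per sample and kind, 10 sums of at least 10 cells in 1 edgeR quasi-likelihood fit with the sample as a term, 3 residual degrees of freedom and 9002 genes. The genes tested include the hormone genes by which the kinds were set, so the shares of all genes below are not free of that rule. The glucagon-led cells entered from the *gcgr-/-* sample alone. None of the 8 genes passed an adjusted p of 0.05 in the glucagon-led against *ins*-led comparison, where 0.189% of all genes tested passed, nor in *sst1.1*-led against *ins*-led (0.189%), *sst1.2*-led against *ins*-led (0.555%) or *sst1.2*-led against *sst1.1*-led cells (0.489%). Over the 32 tests, edgeR gave 1 unadjusted p under 0.05 and DESeq2 gave 0, with 0 adjusted calls by either tool. On simulated counts, run for the *sst1.1*-led against *ins*-led comparison, the fit called none of the genes made to differ, so the absence of calls on members does not show that the kinds are alike.

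The lowest unadjusted p belonged to *chga* in *sst1.2*-led against *ins*-led cells, with a log2 fold change of -2.68 ± 1.19 (SE; edgeR 95% interval -5.02 to -0.34), an unadjusted p of 0.0245 and an adjusted p of 0.818. Within libraries that held at least 2 cells of both kinds, *chga* was lower in the *sst1.2*-led cells in 13 of 17, higher in 1 and equal in 3. With 0 counts in the *gcgr-/-* *sst1.2*-led cells, *chga* could only be lower or equal in the *gcgr-/-* libraries. Over 15 alternatives its log2 fold change stayed between -3.44 and -2.04 and the adjusted p between 0.242 and 1. *chga* in glucagon-led against *ins*-led cells had a log2 fold change of 0.28 ± 1.37 and was higher in 12 of 15 libraries. It was counted in 24 of 106 glucagon-led and 13 of 54 *ins*-led *gcgr-/-* cells. A library sum of fewer cells more often has 0 counts of such a gene, so this tally can lean toward the glucagon-led cells. *cpe* had the lowest estimate of that comparison, -1.39 ± 2.44, and *pcsk1* was at -1.03 ± 2.27 and *pcsk2* at -0.65 ± 1.80, with intervals that reach from -5.47 to 3.41 and from -4.18 to 2.88. The median log2 fold change of the 8 genes was -0.15 in glucagon-led against *ins*-led cells, against 0.05 over all genes tested. In *sst1.1*-led against *ins*-led cells the medians were 0.19 for the 8 and -0.07 for all, in *sst1.2*-led against *ins*-led cells -0.95 and -0.33, and in *sst1.2*-led against *sst1.1*-led cells -0.97 and -0.23. All 8 estimates of the last comparison were below 0, from -1.71 to -0.06, each with an interval across 0, and those of *scg3* and *scg5* turned positive under some settings.

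**Figure D4:**
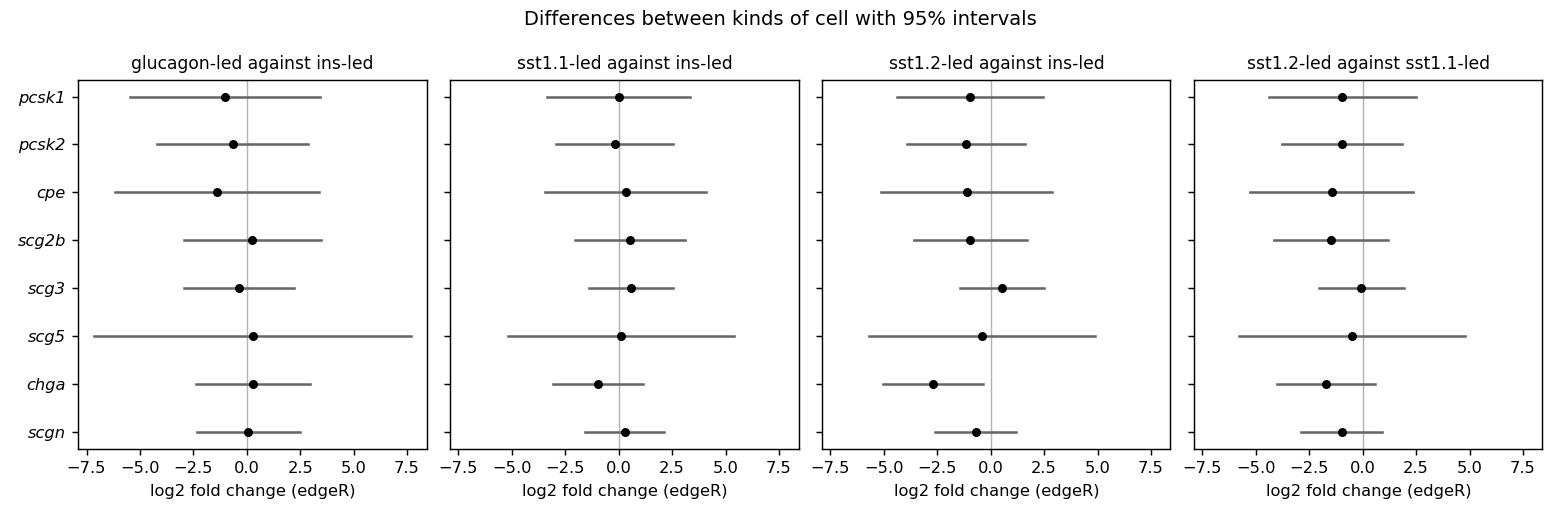
log2 fold changes (edgeR) of the 8 genes in the comparisons between kinds of cell, as points with 95% intervals. Only the interval of *chga* in *sst1.2*-led against *ins*-led cells, -5.02 to -0.34, lies off 0, and its adjusted p was 0.818.

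Between genotypes, with 1 sample each, no test was possible, and values past 2-fold were counted within each kind of cell. The share over all genes is taken from genes with at least 20 counts over both sums and 20 CPM in the higher one, which 7 of the 8 members met in each hormone-led kind and 5 among cells with no leading hormone. In *ins*-led cells 2 of the 8 genes were past 2-fold higher in *gcgr-/-*, against 31.4% of 4399 genes, and 2 were past 2-fold lower, against 33.7%. In *sst1.1*-led cells 1 was higher (41.1% of 4592 genes) and 2 were lower (26.9%). In *sst1.2*-led cells 1 was higher (37.8% of 4336 genes) and 3 were lower (33.1%), and among cells with no leading hormone 6 were higher (42.9% of 4856 genes) and 0 lower (31.5%). The members below that floor changed none of the counts in the hormone-led kinds, while 5 of the 6 in cells with no leading hormone met it. Out of all 8, the counts of members in the 3 hormone-led kinds were thus at or below the share of all genes, save for the lower ones in *sst1.2*-led cells. Out of the 7 that met the floor, the 2 lower ones in *sst1.1*-led cells were also slightly above that share. The members' median log2 ratio was -0.55 in *ins*-led, -0.25 in *sst1.1*-led and 0.02 in *sst1.2*-led cells and 1.39 in cells with no leading hormone, against -0.13, 0.49, 0.13 and 0.47 over all genes compared. No member had libraries of the 2 samples that did not overlap, in any kind. For most members and kinds the lowest library was at 0 CPM in both samples, which by itself makes them overlap. The overlap was not counted over all genes and says little of the members.

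*scg2b* was higher in *gcgr-/-* in each kind compared, though its *ins*-led sums turned on few cells. Its ratio of *gcgr-/-* over control was 4.79 (exact conditional 95% interval 3.29 to 7.18) in *ins*-led cells, 2.77 (2.06 to 3.76) in *sst1.1*-led, 2.54 (1.26 to 5.81) in *sst1.2*-led and 5.01 (2.23 to 12.7) in cells with no leading hormone. Its *ins*-led ratio stayed between 3.47 and 16.2 over the alternatives, while the *sst1.1*-led ratio was 0.930 without plate E and the *sst1.2*-led ratio 1.30 without plate A. After thinning, 21.6% of *gcgr-/-* and 11.1% of control *sst1.1*-led cells held a count of it. Its *ins*-led library values ran from 0 to 880.0 CPM (median 14.5) in *gcgr-/-* and from 0 to 59.8 CPM (median 10.9) in control, so the medians lay closer than the sums. Of 209 *scg2b* counts in *gcgr-/-* *ins*-led cells 160 lay in 2 cells, and of 32 control counts 23 lay in 1 cell. Without the top cell of each sample the *ins*-led sums were 65.4 CPM in *gcgr-/-* and 6.46 CPM in control. *cpe* in *ins*-led cells had a ratio of 4.36 (2.63 to 7.64), from 0 to 179 CPM over the *gcgr-/-* and 0 to 34.9 CPM over the control libraries, and the ratio was 0.774 after thinning. The thinned value rests on few cells, with *cpe* counted in 4 of 53 *gcgr-/-* and 2 of 41 control *ins*-led cells.

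A pair of genes ran the other way in *ins*-led cells. *chga* was 2.74-fold lower in *gcgr-/-* (ratio 0.365, 0.303 to 0.437), with a median library at 13.8 CPM in *gcgr-/-* and 96.3 CPM in control, and the ratio stayed between 0.146 and 0.472 over the alternatives. *pcsk2* was also 2.74-fold lower there (ratio 0.365, 0.289 to 0.459), and its ratio was 0.548 after thinning, within 2-fold. Both ratios lay between the quartiles of all genes compared in *ins*-led cells, the lower being a log2 ratio of -1.67. In *sst1.1*-led cells *chga* was 2.15-fold and *scg3* 2.44-fold lower in *gcgr-/-*, with median libraries of 85.0 CPM in *gcgr-/-* and 358 CPM in control for *scg3*. There *chga* lay between the quartiles of all genes compared and *scg3* below the lower one (log2 ratio -1.17). Both came within 2-fold in some alternatives, *chga* at a ratio of up to 0.636 (without plate B) and *scg3* at 0.543 (without plate A). In *sst1.2*-led cells *chga* was 41.3-fold lower with its *gcgr-/-* sum of 0 set at 3 counts, but its control counts lay in only 3 cells. Its ratio there ran from 0.0163 to 0.241 over the alternatives. *pcsk2* was 7.70-fold lower in *sst1.2*-led cells, a value that rests on 1 control cell and becomes a ratio of 0.907 (0.333 to 2.85) without the cell with the most counts in each sample. *cpe* was 2.99-fold lower there and had a ratio of 2.62 without plate B. *pcsk1* had ratios of 0.706 (0.508 to 0.979) in *ins*-led and 0.714 (0.501 to 1.01) in *sst1.1*-led cells, and neither direction held. Without plate A they were 3.80 and 2.81, and the *sst1.1*-led ratio was 5.48 in the cells the authors kept. The median *pcsk1* library was at 16.3 CPM in *gcgr-/-* and 6.85 CPM in control *ins*-led cells, and at 20.6 CPM in *gcgr-/-* and 0 CPM in control *sst1.1*-led cells.

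In cells with no leading hormone *chga* had a ratio of 343 (94.6 to 2844), and *scg3* of 5.31, *scgn* of 2.49 and *pcsk1* of 2.34 followed. *scg5*, with 6 counts in *gcgr-/-* and 0 in control, was 2.76-fold higher with the control sum set at 3 counts. That value is no lower limit, and the *scg5* ratio came within 2-fold in at least 1 alternative. The *chga* ratio was 3.72 with the leading hormone set at 5% of counts, and after thinning *scg3* was at 1.22 and *pcsk1* at 1.31. Of 119 *scg3* counts in these *gcgr-/-* cells 76 lay in 1 cell, and of 22 *pcsk1* counts 21 lay in 2 cells. *scg3* had a ratio of 1.76 without plate F, and *pcsk1* was within 2-fold without plate B, D or F, at up to 1.92. *scgn* rested on 1 cell of each sample, with 85 of 110 counts in *gcgr-/-* and 56 of 61 in control, and its ratio was 0.634 without plate F. The epithelial and endocrine markers given above moved with these differences, and their part in them was not tested. Over all 288 *gcgr-/-* and 156 control cells, *scg2b* was 2.20-fold higher (23.1% of 4359 genes were past 2-fold higher) and *pcsk2* 2.69-fold lower (22.6% lower), and the other 6 genes were within 2-fold. These sums mix kinds of cell in unequal numbers, with 106 glucagon-led cells in *gcgr-/-* and 3 in control. The glucagon-led cells held 440 of 1036 *gcgr-/-* counts of *scg2b* and 123 of 372 of *pcsk2*. Their part in the ratios was not tested.

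**Figure D5:**
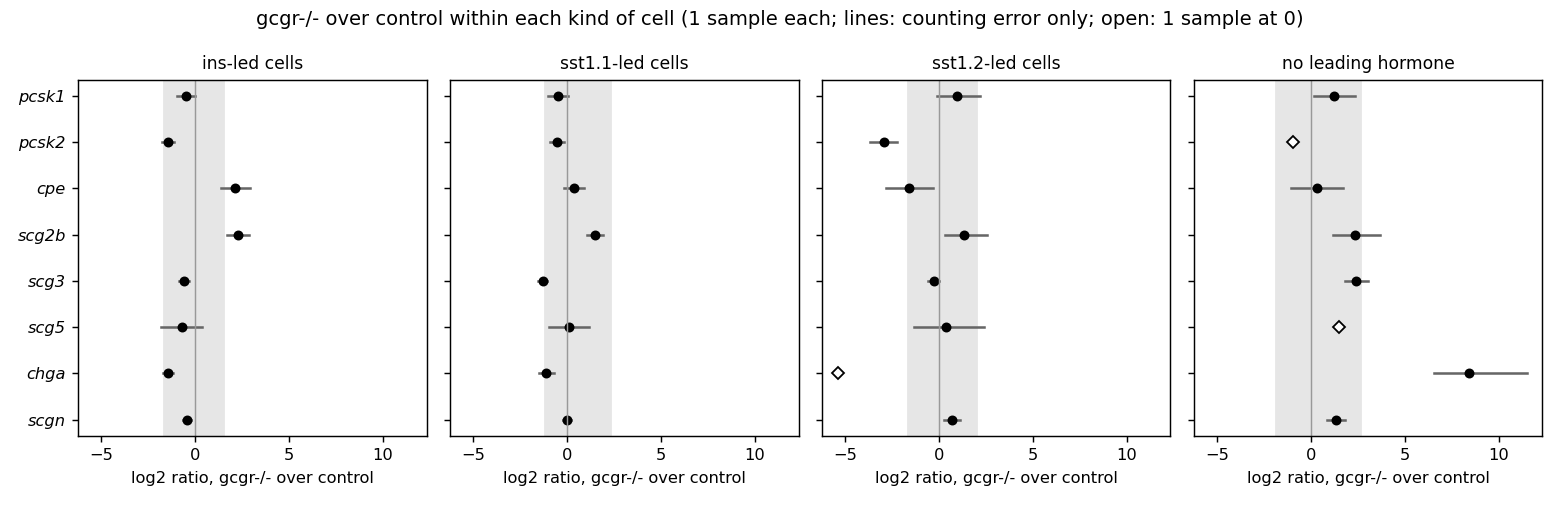
log2 ratio of *gcgr-/-* over control for the 8 genes within each kind of cell, with lines for counting error (95%), open diamonds where 1 sample had 0 counts and was set at 3 counts, and grey bands from the lower to the upper quartile of all genes compared. *scg2b* lies right of 0 in each kind, past the band in *ins*-led cells only. *chga* lies left of 0 in the hormone-led cells, there past the band in *sst1.2*-led cells only, and far right in cells with no leading hormone.

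A list of 29 other genes of the pathway was counted beside the 8. Of these, 27 were in the tables, 24 had a count and 19 passed the edgeR filter, and 0 passed the test in either direction in any of the 4 comparisons between kinds, with adjusted p of 0.609 or more. Between the *ins*-led sums, 12 of them met the floor used for all genes, and of these 5 were past 2-fold higher and 3 past 2-fold lower in *gcgr-/-*, against the 31.4% and 33.7% of all genes given above. Counts this small cannot be told from those shares. *pcsk1nl* was among the lower ones, at 56.9 CPM in *gcgr-/-* and 152 CPM in control. *vgf*, a granin-like precursor of secreted peptides, was singled out after its values were seen. It had 268 counts in 13 of 54 *gcgr-/-* *ins*-led cells, from 10 of 15 libraries, and 0 counts in 41 control cells. With the control sum set at 3 counts it was 65.5-fold higher. Over all cells it had 514 counts in 37 *gcgr-/-* cells and 2 counts in 2 control cells, a ratio of 119 (32.8 to 985). *chgb*, which encodes chromogranin B, had 0 counts in *gcgr-/-* and 42 counts in 4 control cells, 38 of them in 1 *sst1.2*-led cell. Furin is a convertase of the Golgi, and its gene *furina* was at 2.56 CPM in *gcgr-/-* and 5.59 CPM in control *ins*-led cells, on 5 and 8 counts. Over all cells its ratio was 3.58, with 388 of 518 *gcgr-/-* counts in 2 cells.

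The 3 genes most like each convertase gene over the 10 sums were found by Pearson's r of log2(CPM + 10), as a description. For *pcsk1* these were *fam219aa* (0.889), *pdia6* (0.885) and *si:ch211-193l2.10* (0.874) among 2847 genes, and for *pcsk2* they were *atp5f1d* (0.925), *kcnip3b* (0.917) and *RIMBP2* (0.911) among 2846. Of the other members that reached 100 CPM in a sum, *scgn* was the most like *pcsk1* (0.699) and *scg3* the most like *pcsk2* (0.602). *pcsk1* and *pcsk2* had an r of 0.442, and *cpe* and *scg5* were below that level and not ranked. Sums of a sample share libraries and depth.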

How the data were processed

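The authors sorted GFP-positive islet cells, made 3′ single-cell libraries by a modified Smart-seq2 protocol, removed poly T tails, trimmed reads (Trim Galore), mapped them (STAR, GRCz11) and used featureCounts over coding sequence. The deposited values are raw counts per gene and cell; the primers carried molecular identifiers, but no collapsing of them is stated, so that counts can hold PCR copies. For each sample, the table of all cells was used, and the table of cells the authors kept (197 *gcgr-/-*, 88 control) served as an alternative. The 17 gene names spelled differently between samples were joined by position. Doublets were not called.

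The members, the gene lists and the rule for the kinds of cell were chosen with earlier results of these data known. The text names the 8 members, listed pathway genes, and the 3 genes most like *pcsk1* and *pcsk2* (at least 100 CPM in a sum). Marker lists were checked for α, β, δ, endocrine, acinar, epithelial, liver, blood, immune and neuronal cells, and acinar markers summed to at most 980 CPM, liver markers to at most 1305 CPM, neuronal markers to at most 686 CPM, blood markers to at most 10.7 CPM and immune markers to at most 2.06 CPM in any main kind. Markers of other islet kinds were higher. In *ins*-led cells δ markers summed to 11171 CPM in *gcgr-/-* and 17420 CPM in control, with 1 control cell at 141421 CPM. In *sst1.1*-led cells β markers summed to 4709 CPM in *gcgr-/-* and 16393 CPM in control, with 1 control cell at 127258 CPM.

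Counts were summed per sample and kind. Intervals at the 95% level were exact (Poisson for sums, conditional for ratios, Clopper-Pearson for shares). A sum with 0 counts was set at 3 counts. The share of all genes past 2-fold between genotypes was taken over genes with at least 20 counts in both sums together and 20 CPM in the higher one. Members were compared also below that floor, where 1 sum had more than 3 counts. Cells were thinned to 5000 counts without replacement (seed 1). edgeR 4.0.16 in R 4.3.3 was run with TMM on genes with at least 10 counts in 2 sums and Benjamini-Hochberg adjustment, and DESeq2 1.42.0 was an alternative. The sums stand for kinds of cell within 2 samples, so p-values measure only the spread between these sums. Both the fit and the ratios were tested on simulated data, where the fit called none of the genes made to differ between *sst1.1*-led and *ins*-led cells. Other steps ran in Python 3.11.15 (scipy 1.17.1, matplotlib 3.10.9, pandas 2.3.3, numpy 2.4.6). Alternatives were other size factors, no filter, no hormone genes, thinned counts, a 5% limit for the leading hormone, at least 750 genes, cells without a leading hormone left out, per-cell means, the authors' kept cells, each plate left out and, added after the data were seen, each gene's top cell left out.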

Additional observations from a re-analysis of the deposited data

Results flagged for a closer look

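For 3 genes the *gcgr-/-* over control ratio was past 2-fold in opposite directions in different kinds of cell, with counting intervals off 1 or a sum at 0 on both sides; the difference between kinds was not tested, since each genotype was 1 sample. Over all genes, 31.4% to 42.9% were past 2-fold higher within a kind of cell and 26.9% to 33.7% were lower. The share of all genes that went both ways was not counted. *cpe* had a ratio of 4.36 in *ins*-led cells (0.774 after thinning) and 0.335 in *sst1.2*-led cells (2.62 without plate B). *scg3* had a ratio of 5.31 in cells with no leading hormone, with 76 of 119 *gcgr-/-* counts in 1 cell, and 0.409 in *sst1.1*-led cells. *chga* had a ratio of 343 in cells with no leading hormone, against 0.365 in *ins*-led, 0.466 in *sst1.1*-led and 0.0242 in *sst1.2*-led cells, the last with the *gcgr-/-* sum set at 3 counts. Of these, *chga* in *ins*-led cells, in *sst1.2*-led cells and in cells with no leading hormone was past 2-fold the same way in every alternative run. For *ins*-led cells the authors' kept cells could not be run, since they hold 1 *gcgr-/-* and 0 control cells of that kind.

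The 96 *gcgr-/-* and 36 control cells that failed the quality filter, at medians of 896 and 1094 counts, also held member transcripts above the 3 counts that a sum of 0 would allow. In *gcgr-/-* these cells had 26 counts of *pcsk1*, 27 of *pcsk2*, 6 of *cpe*, 31 of *scg2b*, 48 of *scg3*, 16 of *chga* and 32 of *scgn*. In control they had 11 counts of *pcsk1*, 38 of *pcsk2*, 5 of *cpe*, 4 of *chga* and 11 of *scgn*. As CPM, *pcsk2* was at 152 in the failed *gcgr-/-* cells and 334 in the failed control cells.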

How the results depend on the processing

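Of 472 log2 fold changes of members in the alternatives, 434 kept their sign. None had an adjusted p under 0.05 (4 from DESeq2 had none), which says nothing of stability, since on simulated counts for *sst1.1*-led against *ins*-led cells the fit called no changed gene. In glucagon-led against *ins*-led cells *scgn* was at -0.26 at the 5% limit, -0.28 at 750 genes and -0.51 without top cells, *pcsk2* was at 0.34 after thinning and *scg3* was at 0.61 after thinning. With plates left out in glucagon-led against *ins*-led cells, *scg2b* lay between -0.31 and 0.67, *scgn* lay between -0.32 and 0.91, *scg5* lay between -0.12 and 0.71 and *pcsk2* lay between -0.97 and 0.18. In *sst1.1*-led against *ins*-led cells *pcsk2* was at 0.10 after thinning and 0.020 without top cells and *pcsk1* was at 0.053 with DESeq2 size factors, 0.052 with DESeq2, 0.022 at the 5% limit and 0.14 without top cells. With plates left out in *sst1.1*-led against *ins*-led cells, *cpe* lay between -0.87 and 0.78, *scgn* lay between -0.42 and 0.77, *scg5* lay between -0.14 and 0.37, *scg3* lay between -0.35 and 1.39 and *pcsk1* lay between -0.20 and 0.15. In *sst1.2*-led against *ins*-led cells *scg2b* was at 1.03 after thinning and *scg3* was at -0.16 at the 5% limit. With plates left out in *sst1.2*-led against *ins*-led cells, *scgn* lay between -1.50 and 0.15 and *scg5* lay between -1.11 and 0.26. In *sst1.2*-led against *sst1.1*-led cells *scg3* was at 0.084 with DESeq2 size factors, 0.084 with DESeq2, 0.18 after thinning and 0.10 without cells lacking a leading hormone. With plates left out in *sst1.2*-led against *sst1.1*-led cells, *scg5* lay between -1.07 and 0.049 and *scg3* lay between -1.04 and 0.75.

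Of all genes tested, 17 were called between glucagon-led and *ins*-led cells, and 10 after thinning and 11 without top cells, with 7 to 17 as plates were left out. Of all genes tested, 17 were called between *sst1.1*-led and *ins*-led cells, and 3 after thinning, 26 without cells lacking a leading hormone and 11 without top cells, with 6 to 20 as plates were left out. Of all genes tested, 50 were called between *sst1.2*-led and *ins*-led cells, and 87 with DESeq2 and 24 after thinning, with 23 to 48 as plates were left out. Of all genes tested, 44 were called between *sst1.2*-led and *sst1.1*-led cells, and 73 with DESeq2, 25 without a filter, 18 after thinning and 25 at 750 genes, with 15 to 42 as plates were left out. Plate A or B gave the fewest calls in 3 of these comparisons and plate F in *sst1.1*-led against *ins*-led cells. For *gcgr-/-* glucagon-led cells the *pcsk1* share was 30.8% after thinning and 58.2% as the mean over cells. Means over cells cover only cells with at least 10 counts of the pair, from 1 to 8 cells per kind and sample. For *gcgr-/-* *ins*-led cells the *pcsk1* share was 61.2% as the mean over cells and 47.9% without top cells, and 28.6% to 57.1% as plates were left out. For control *ins*-led cells the *pcsk1* share was 42.9% after thinning and 15.1% without top cells, and 4.72% to 40.3% as plates were left out. For *gcgr-/-* *sst1.1*-led cells the *pcsk1* share was 44.3% as the mean over cells, and 27.0% to 47.3% as plates were left out. For control *sst1.1*-led cells the *pcsk1* share was 25.0% after thinning, 25.0% as the mean over cells and 25.4% without top cells, and 12.5% to 43.8% as plates were left out. For *gcgr-/-* *sst1.2*-led cells the *pcsk1* share was 100% as the mean over cells, which rests on 2 of 29 cells. For control *sst1.2*-led cells the *pcsk1* share was 23.1% after thinning, 50.0% at the 5% limit and 53.8% without top cells. It was 4.48% to 66.7% as plates were left out. The only such cell with at least 10 counts of the pair, 1 of 29, had a share of 0%. For *gcgr-/-* cells with no leading hormone the *pcsk1* share was 45.8% at the 5% limit. For control cells with no leading hormone the *pcsk1* share was 18.8% at the 5% limit, and 0% to 68.4% as plates were left out.

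In *ins*-led cells 4 members were past 2-fold between genotypes, and 2 after thinning. In *sst1.2*-led cells 4 members were past 2-fold between genotypes, and 7 in the authors' kept cells and 2 without top cells, and 4 to 7 as plates were left out. In cells with no leading hormone 6 members were past 2-fold between genotypes, and 3 after thinning. Of the called ratios of *gcgr-/-* over control, *cpe* in *ins*-led cells was 0.774 after thinning, *pcsk2* in *sst1.2*-led cells was 1.18 at the 5% limit and *scgn* in cells with no leading hormone was 0.515 in the authors' kept cells. As plates were left out, *scg2b* in *sst1.1*-led cells lay between 0.930 and 3.52, *pcsk2* in *sst1.2*-led cells lay between 0.0543 and 1.74, *cpe* in *sst1.2*-led cells lay between 0.145 and 2.62 and *scgn* in cells with no leading hormone lay between 0.634 and 60.7. Over 400 alternatives to the 32 ratios of members, 47 lay on the other side of 1, and 15 of the 32 ratios crossed 1 at least once. Of these 47, 7 belong to ratios past 2-fold. The cause of these changes was not tested. Leaving out top cells was chosen after seeing the data. No paired analysis was possible because the labels give no replicate numbers and each genotype is 1 sample.

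Depth limits the 8 genes: after thinning, the median cell of each main hormone-led kind held a count of 1 of them, and sums over cells can turn on 1 cell or 1 plate. With 1 sample per genotype, no value here measures the spread between clutches or larvae.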

Other observations

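Kinds with few cells gave values that belong to no comparison. The 12 *ghrl*-led *gcgr-/-* cells held 132 counts of *scgn* in 10 cells, 318 CPM, and 76 counts of *scg2b* in 6 cells, 183 CPM, but 1 count of *pcsk2*. The 3 *ghrl*-led control cells had *scgn* in all 3, at 301 CPM. The *sst2*-led cells, 6 of each genotype, had 0 counts of *pcsk2*, while *scg3* was counted in 4 of 6 *gcgr-/-* and 6 of 6 control cells, at 93.2 and 155 CPM. Of the 3 glucagon-led control cells, 2 had *scg3* and 1 had *chga*.

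Other granule genes of the list also differed between the samples. *ptprnb*, which encodes a receptor-type phosphatase of the dense-core granule membrane, had 1589 counts in 115 *gcgr-/-* cells and 282 in 30 control cells, a ratio of 2.61 (2.30 to 2.97), and *ptprna* had a ratio of 2.44 (1.92 to 3.13), where 23.1% of all genes were past 2-fold higher. These ratios over all cells include unequal numbers of glucagon-led cells, 106 in *gcgr-/-* and 3 in control, and 336 of the 432 *gcgr-/-* counts of *ptprna* lay in them. Within kinds, *ptprna* had a ratio of 1.68 in *ins*-led, 0.994 in *sst1.1*-led and 0.266 in *sst1.2*-led cells, and *ptprnb* had 2.11, 1.91 and 1.47. *pam*, whose enzyme amidates peptide ends, was within 2-fold, at 52.3 CPM in *gcgr-/-* and 36.1 CPM in control. *slc30a8*, the granule zinc transporter gene, had 3 counts in *gcgr-/-* and 27 counts in control *ins*-led cells, the control ones all in 1 cell.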
